A study of Mus musculus with 8 samples.

Results

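The genes described here are 37 enzymes and carriers of the urea cycle and of amino acid breakdown in mouse liver. They were taken by symbol from a list chosen with earlier results of these data known. All 37 were found among the 22013 genes of the deposited table, and all 37 passed the filter on low counts. They were grouped by pathway as the urea cycle (7 genes), transamination and glutamate (4), histidine (3), serine, proline and glyoxylate (5), tyrosine (5), tryptophan (4), branched-chain amino acids (2), and methionine and sulfur (7). Poly(A)-selected liver RNA was sequenced in 8 libraries, 4 titled as control and 4 titled with the short form of resmetirom, a drug that activates thyroid hormone receptor beta, the main form in hepatocytes. The series models steatohepatitis with 12 weeks of a diet of fructose, palmitate and cholesterol, and resmetirom was given by intraperitoneal injection at 5 mg/kg/day for 8 weeks after the first 4 weeks. The vehicle contained 0.5% carboxymethyl cellulose sodium and 0.4% Tween-80. Neither diet nor vehicle is given for the control libraries, and strain, sex and age are given for neither group, so a difference in diet or vehicle cannot be told apart from the drug. No label ties a library to its own animal, and p-values therefore measure the spread between these libraries, which may be technical.

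The liver disposes of nitrogen from amino acids by building urea. Ammonia is fixed as carbamoyl phosphate in the mitochondrion of periportal hepatocytes, joined to ornithine, exported as citrulline and, after aspartate has supplied the other nitrogen, split by arginase into urea and ornithine. Carbon skeletons are handled by separate branches: tyrosine is opened to fumarate and acetoacetate, tryptophan enters the kynurenine pathway, methionine becomes the methyl donor S-adenosylmethionine and then homocysteine, cysteine and taurine, and branched-chain amino acids are first transaminated mostly outside the liver. Several of these genes, Tat among them, are classical targets of glucocorticoids and glucagon.

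In the resmetirom libraries 8 of the 37 genes rose and 0 fell at a Benjamini-Hochberg adjusted p under 0.05 in edgeR's quasi-likelihood test. The risers lay in 3 branches: Cps1, Arg1 and Slc25a15 of the urea cycle, Tat of tyrosine breakdown, and Gnmt, Cbs, Cth and Cdo1 of the methionine and sulfur branch. Among all 12207 tested genes, 2.6% were called higher and 1.99% lower. Because the list was chosen with earlier results of these data known, a distance from the shares of all genes is not independent support. The median log2 fold change of the 37 was 0.24, against -0.0043 for all tested genes, and 28 of the 37 lay above 0. Without the adjustment, 17 genes above 0 and 3 below 0 had a p under 0.05, beside 9.48% and 8.36% of all tested genes. DESeq2 called 13 of the 37 higher and 0 lower, beside 4.36% and 3.37% of all genes, and limma-voom 8 higher and 0 lower, beside 2.65% and 1.9%. All 4 resmetirom libraries lay above all 4 control libraries in 10 of the 37 genes and below them in 1, beside 6.32% and 5.5% of all tested genes.

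These values are relative to scaling by TMM factors, which set most genes to no change. The major urinary protein (Mup) genes took 4.32% to 7.05% of all counts in the control libraries. Their share was 7.54% in resmetirom replicate 1 and lay between 17.8% and 25.1% in the other 3. When libraries were scaled by size alone, all genes had a median of -0.31 and the 37 genes of -0.070, and the calls became 3 higher (Slc25a15, Tat and Cth) and 6 lower (Gls2, Uroc1, Ftcd, Prodh, Hpd and Haao), beside 1.24% and 16.1% of all genes. The distance between the 2 medians was 0.24 under both scalings. A change of library scaling shifts all genes by nearly the same amount, so this distance was bound to stay and is no separate support. On the log2(TPM + 1) scale 2 of the 37 were higher and 14 lower, beside 1.01% and 38.1% of all genes, and the distance between the medians was 0.13. With 0.1 added in place of 1 the calls were also 2 and 14 (0.999% and 37.7% of all genes), and the distance was 0.22. Library sizes counted without the Mup genes, a scaling chosen after seeing the data, gave 5 higher (Cps1, Slc25a15, Tat, Cth and Cdo1) and 1 lower (Uroc1), beside 1.92% and 3.64% of all genes. Tat and Cth were the 2 genes called higher under all 19 alternatives run.

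**Figure D1:**
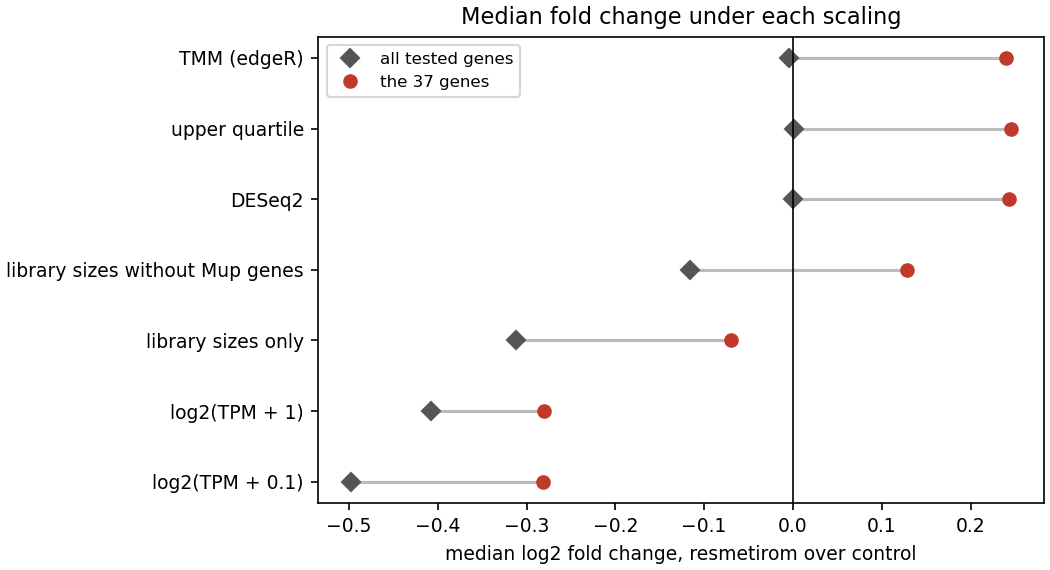
Median log2 fold change of resmetirom over control (horizontal axis) for the 37 genes (circles) and for all tested genes (diamonds) under 7 scalings (rows). The circle lies to the right of the diamond in every row, at 0.24 against -0.0043 with TMM factors and at -0.28 against -0.41 on the log2(TPM + 1) scale. Rows that differ only in library scaling shift both marks by nearly the same amount, so they are not separate evidence.

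In the urea cycle the called genes encode its entry enzyme, its ornithine carrier and the enzyme of its last step. Differences between genes of the cycle were not tested. Cps1 encodes carbamoyl phosphate synthetase, which fixes ammonia in the mitochondrion (ENSMUSG00000025991, GRCm38 chromosome 1, 67123026 to 67231259). TMM-scaled CPM are counts relative to the library size multiplied by its TMM factor. Those of Cps1 were 2567, 4016, 3276 and 3409 in control replicates 1 to 4. In resmetirom replicates 1 to 4 they were 6073, 5962, 4414 and 6086. The groups did not overlap, and resmetirom replicate 3 was the nearest to the control libraries. The means were 3317 ± 595 and 5634 ± 815 CPM (SD, n = 4 each). This rise of 0.76 on the log2 scale had an SE of 0.15 (edgeR adjusted p = 0.00988). It was 0.47 with library sizes only (adjusted p = 0.0836) and 0.26 on log2(TPM + 1) (adjusted p = 0.300), so the call depended on the scaling.

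Slc25a15 encodes the carrier that brings ornithine into the mitochondrion in exchange for citrulline (ENSMUSG00000031482, chromosome 8, 22375551 to 22398597). It stood at 238, 251, 172 and 207 CPM in the control libraries and at 383, 434, 303 and 412 CPM in the resmetirom libraries. The lowest resmetirom library was again replicate 3, and it still exceeded all control libraries. The log2 fold change was 0.82 (SE 0.14, edgeR adjusted p = 0.00458), and the call held with library sizes only (0.52, adjusted p = 0.0349) but not on log2(TPM + 1), at 0.31 (adjusted p = 0.170).

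Arg1 encodes arginase, which releases urea from arginine (ENSMUSG00000019987, chromosome 10, 24915221 to 24927484). Its levels were 1117, 1455, 1151 and 1106 CPM in the control and 1910, 2319, 1359 and 2318 CPM in the resmetirom libraries. Resmetirom replicate 3 fell below control replicate 2, so the groups overlapped. The log2 fold change was 0.71 (SE 0.17, edgeR adjusted p = 0.0331). That call was lost when any 1 library other than control replicate 2 or resmetirom replicate 3 was left out (adjusted p 0.0663 to 0.120), and with library sizes only (0.41, adjusted p = 0.121).

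The 4 other genes of the cycle did not pass. Otc, whose product joins carbamoyl phosphate to ornithine, had the most even levels of these, 343 to 384 CPM in the control and 327 to 401 CPM in the resmetirom libraries, with a log2 fold change of 0.041 (SE 0.088, edgeR adjusted p = 0.875). Asl encodes argininosuccinate lyase and stood at 403, 668, 394 and 465 CPM against 637, 909, 571 and 808 CPM, which is 0.60 on the log2 scale (SE 0.20, edgeR adjusted p = 0.139). Control replicate 2 overlapped the resmetirom libraries there, and without it Asl was called (edgeR adjusted p = 0.0187), as it was with DESeq2 (adjusted p = 0.0383). Ass1, the synthetase that adds aspartate, had a log2 fold change of 0.34 (edgeR adjusted p = 0.183), and Nags, which makes the obligate activator of carbamoyl phosphate synthetase, had 0.32 (edgeR adjusted p = 0.341). All 7 log2 fold changes of the cycle lay above 0 with TMM factors, with a median of 0.60. Otc turned to -0.27 with library sizes only, and Otc, Ass1 and Nags lay below 0 on the log2(TPM + 1) scale.

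Ratios of raw counts within a library do not depend on how libraries are scaled. The ratios given here and for other branches were chosen after their values were seen and carry no test. Cps1 reads per Otc read were 6.98, 11.4, 8.53 and 9.95 in the control and 18.5, 14.9, 12.1 and 15.5 in the resmetirom libraries, so the groups did not overlap. Arg1 reads per Otc read were at most 4.15 in the control libraries. They were 3.71 in resmetirom replicate 3 and 5.79 to 5.90 in the other resmetirom libraries, so the groups overlapped.

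**Figure D2:**
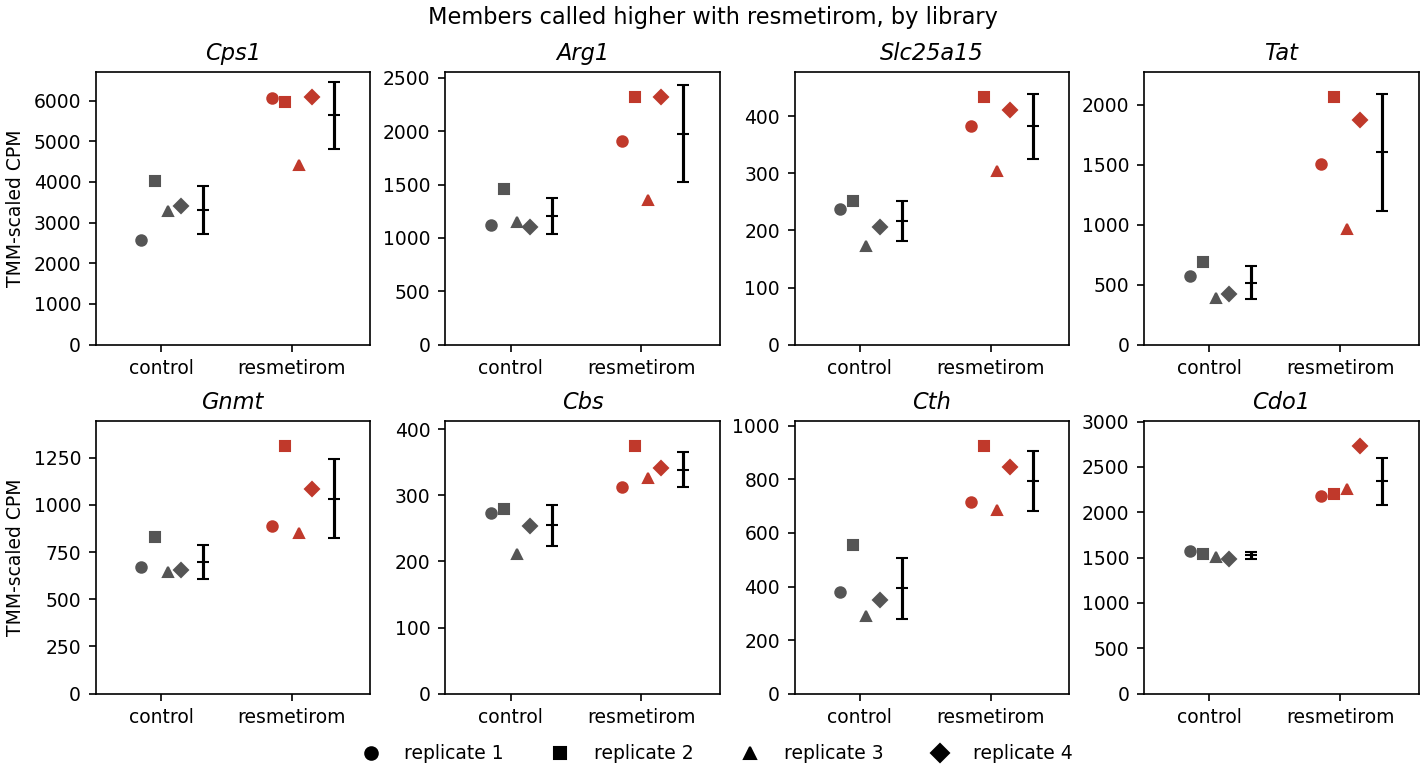
TMM-scaled CPM (vertical axes, from 0) of the 8 genes called higher, for each control (grey) and resmetirom (red) library, with marker shape giving the replicate number and black bars the mean ± SD of 4 libraries. The groups are apart in 7 of the 8 panels and overlap for Arg1, where resmetirom replicate 3 (1359 CPM) lies below control replicate 2 (1455 CPM).

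The methionine and sulfur branch held the most calls, 4 of 7, and all 7 of its log2 fold changes were above 0 with TMM factors (median 0.56), though Ahcy lay at -0.041 with library sizes only and Ahcy and Cbs lay below 0 on the log2(TPM + 1) scale. Cdo1 encodes cysteine dioxygenase, which commits cysteine to taurine and sulfite. It was at 1572, 1543, 1501 and 1483 CPM in the control libraries and at 2182, 2200, 2253 and 2730 CPM in the resmetirom libraries. The coefficient of variation of the control libraries was 2.65%, the smallest of the 37 genes in that group. Its log2 fold change of 0.62 (SE 0.095) had the smallest edgeR adjusted p of the set, 0.00261, though with library sizes only it was 0.31 (adjusted p = 0.0810) and on log2(TPM + 1) 0.10 (adjusted p = 0.571).

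Cth encodes cystathionine gamma-lyase, which releases cysteine (ENSMUSG00000028179, chromosome 3, 157894248 to 157925077). The control libraries held 379, 553, 292 and 348 CPM and the resmetirom libraries 714, 924, 686 and 844 CPM. Every resmetirom library was above the highest control library, replicate 2. The rise was 1.01 on the log2 scale (SE 0.19, edgeR adjusted p = 0.0114), or 2.02-fold.

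Gnmt encodes the glycine methyltransferase that uses up excess S-adenosylmethionine (ENSMUSG00000002769, chromosome 17, 46725664 to 46729168). It was at 669, 832, 642 and 653 CPM in the control and at 889, 1311, 850 and 1082 CPM in the resmetirom libraries. Cbs, whose product condenses homocysteine with serine (ENSMUSG00000024039, chromosome 17, 31608894 to 31637238), was at 273, 279, 211 and 254 CPM and at 312, 374, 327 and 341 CPM. Both genes had separate groups, with log2 fold changes of 0.56 (SE 0.14, edgeR adjusted p = 0.0450) for Gnmt and 0.41 (SE 0.10, edgeR adjusted p = 0.0428) for Cbs. Dropping control replicate 1, 3 or 4 or resmetirom replicate 2 or 4 ended the call for Gnmt (adjusted p 0.0936 to 0.150), as did library sizes only (0.25, adjusted p = 0.211). Dropping control replicate 3 or 4 or any resmetirom library but the first ended it for Cbs (adjusted p 0.0652 to 0.124). Cbs lay at 0.10 with library sizes only (adjusted p = 0.525) and at -0.14 on the log2(TPM + 1) scale. The non-robust edgeR fit called neither Gnmt nor Cbs.

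The remaining sulfur genes were not called. Mat1a, the hepatic S-adenosylmethionine synthetase gene, stood at 4389, 6742, 4054 and 4342 CPM against 6567, 8182, 5979 and 7168 CPM. Only control replicate 2 reached into the resmetirom range, and the log2 fold change of 0.51 (SE 0.16, edgeR adjusted p = 0.113) was called without that library, at 0.71 (adjusted p = 0.00781). Ahcy, which hydrolyses S-adenosylhomocysteine, was at 0.27 (SE 0.11, edgeR adjusted p = 0.219). Bhmt, the betaine-dependent enzyme that returns homocysteine to methionine, had the widest control spread of the 37, from 2170 to 7072 CPM, and ran from 4804 to 9901 CPM in the resmetirom libraries. Its log2 fold change of 0.62 had an SE of 0.43 (edgeR adjusted p = 0.554), so a difference was not detectable above this spread. How reads were split between Bhmt and its near copy Bhmt2 is not given, and some may be misassigned. Per Ahcy read, Cdo1 reads were 0.629 to 0.738 in the control and 0.756 to 0.977 in the resmetirom libraries, and Cth reads were 0.137 to 0.226 and 0.290 to 0.318.

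In tyrosine breakdown the called gene was that of the first enzyme. Tat encodes tyrosine aminotransferase, the first and regulated step (ENSMUSG00000001670, chromosome 8, 109990437 to 109999803). It stood at 571, 686, 389 and 423 CPM in the control libraries and at 1509, 2066, 962 and 1875 CPM in the resmetirom libraries. Every resmetirom library exceeded every control library, and replicate 3 was the lowest of its group. The rise of 1.63 on the log2 scale (SE 0.27, edgeR adjusted p = 0.0110), or 3.10-fold, was the highest among the 37 genes.

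The enzymes after Tat in the same pathway did not pass. Hpd, the dioxygenase that follows it, had 1629 to 2140 CPM in the control and 1348 to 2050 CPM in the resmetirom libraries, at a log2 fold change of -0.13 (SE 0.13, edgeR adjusted p = 0.704). Hgd, which opens the ring of homogentisate, stood at 594, 686, 515 and 545 CPM against 719, 772, 706 and 702 CPM. Its groups were apart, with a log2 fold change of 0.31 (SE 0.099, edgeR adjusted p = 0.113), and without control replicate 2 it was called (adjusted p = 0.0360). The isomerase gene Gstz1 was at 0.24 and the final hydrolase gene Fah at 0.13. Tat reads per Hpd read were 0.229 to 0.321 in the control libraries and 0.609 to 1.12 in the resmetirom libraries. Scaling of libraries does not alter this ratio, but the pair was chosen after its values were seen and carries no test.

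In the tryptophan branch 0 of 4 genes passed with TMM factors in edgeR, and 2 had separate groups. Tdo2, the dioxygenase that opens the pathway in hepatocytes, was at 1652, 2006, 2180 and 2039 CPM in the control and at 2342, 2711, 2274 and 2798 CPM in the resmetirom libraries. Kynu, the kynureninase gene, was at 152, 136, 118 and 123 CPM and at 156, 173, 161 and 180 CPM. All resmetirom libraries were above all control libraries for both, narrowly so for Kynu. The log2 fold changes were 0.36 (SE 0.11, edgeR adjusted p = 0.0956) for Tdo2 and 0.34 (SE 0.099, adjusted p = 0.0771) for Kynu, and DESeq2 called both (adjusted p = 0.0383 and 0.0406). Kmo, which hydroxylates kynurenine, was at 0.099 and Haao, which acts after Kynu, at -0.27. Tdo2, Kynu and Kmo lay below 0 on the log2(TPM + 1) scale, as did the median of all genes.

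**Figure D3:**
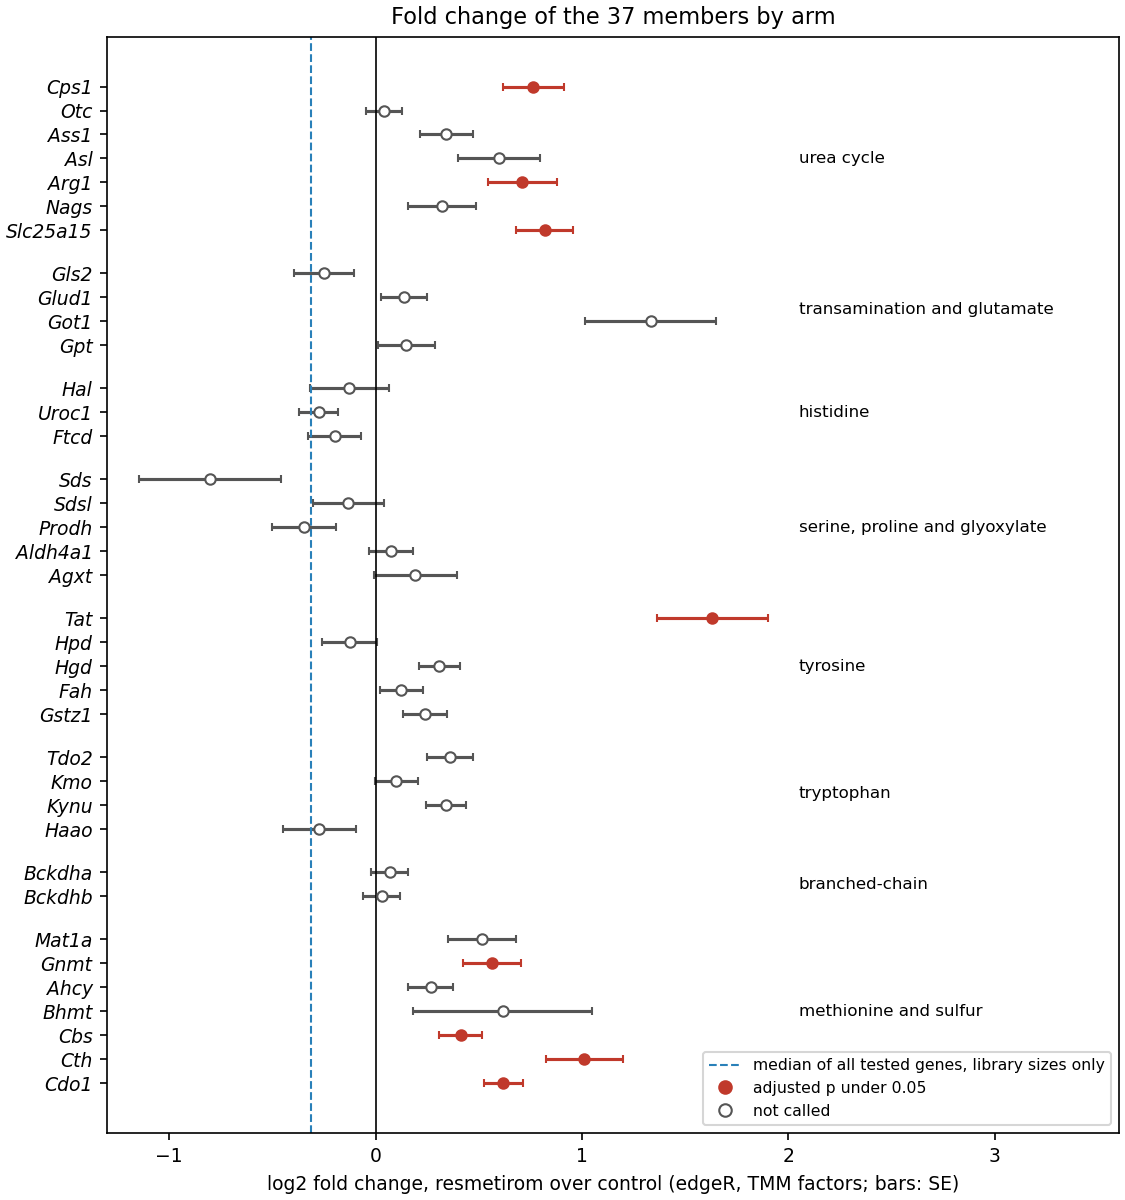
Log2 fold change of resmetirom over control (horizontal axis; bars are SE) for each of the 37 genes, grouped by pathway, with filled red points for genes called at an adjusted p under 0.05 and open points for the rest. Calls lie in the urea cycle (3), tyrosine (1) and methionine and sulfur (4) groups. The points use TMM factors, for which the median of all tested genes is -0.0043. The dashed line at -0.31 marks that median on another scale, with libraries scaled by size only.

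Among the genes of transamination and glutamate, Got1 stood apart in size but not in its test. It encodes the cytosolic aspartate aminotransferase, which links glutamate to the aspartate used by the urea cycle. Its levels were 114, 209, 117 and 159 CPM in the control and 454, 479, 197 and 379 CPM in the resmetirom libraries. Replicates 1, 2 and 4 of resmetirom were above all control libraries, while replicate 3 was below control replicate 2. The log2 fold change was 1.33 (SE 0.32, edgeR adjusted p = 0.0637). DESeq2 called it (adjusted p = 1.93e-05), and so did edgeR when resmetirom replicate 3 was dropped (adjusted p = 0.00312) or the non-robust fit was used (adjusted p = 0.0184).

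The others of that group had small values. Gls2, the liver glutaminase gene, was at -0.25, Glud1, the glutamate dehydrogenase gene, at 0.14, and Gpt, the alanine aminotransferase gene, at 0.15, with edgeR adjusted p from 0.419 to 0.660. Glud1 ran from 868 to 965 CPM in the control libraries and from 914 to 1265 CPM in the resmetirom libraries. Replicate 3 was its highest resmetirom library, unlike for Got1, Tat and Cps1.

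The 3 genes for histidine breakdown among the 37 all had values below 0, with 0 of 3 called with TMM factors. With library sizes only Uroc1 and Ftcd were called lower, beside 16.1% of all tested genes. On both TPM scales all 3 were called lower, beside 38.1% of all tested genes on log2(TPM + 1) and 37.7% on log2(TPM + 0.1). Uroc1, the urocanate hydratase gene, was at 221, 255, 230 and 225 CPM in the control and at 166, 210, 187 and 206 CPM in the resmetirom libraries. It was the 1 gene of the 37 whose resmetirom libraries all lay below the control libraries, with a log2 fold change of -0.28 (SE 0.094, edgeR adjusted p = 0.138). Hal, the histidine ammonia-lyase gene, was at -0.13 and turned to 0.010 without resmetirom replicate 3. Ftcd, which passes the formimino group to folate, was at -0.20. Amdhd1, a further gene of histidine breakdown outside the 37, lay above 0, at 0.22 (SE 0.11, edgeR adjusted p = 0.341), with overlapping groups.

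Of serine, proline and glyoxylate metabolism, 0 of 5 genes passed. Sds encodes serine dehydratase, which makes pyruvate and ammonia from serine. It varied most after Bhmt, with 70.1, 167, 125 and 161 CPM in the control and 68.7, 110, 45.3 and 76.2 CPM in the resmetirom libraries. Control replicate 1 lay inside the resmetirom range, and the log2 fold change of -0.80 (SE 0.34) had an edgeR adjusted p of 0.280. Its relative Sdsl was the least abundant of the 37, at 6.13 CPM in its lowest library, with a log2 fold change of -0.13. Prodh, which starts proline oxidation, was at 106, 119, 74.1 and 92.1 CPM in the control and at 66.7, 96.2, 70.0 and 74.2 CPM in the resmetirom libraries. Its groups overlapped, and the log2 fold change was -0.35 (SE 0.15, edgeR adjusted p = 0.265). Aldh4a1, the following dehydrogenase gene, was at 0.076. Agxt, which detoxifies glyoxylate by transamination, was at 0.19.

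The branched-chain pair was nearly level. Bckdha and Bckdhb encode the subunits of the decarboxylase part of the branched-chain keto acid dehydrogenase. Bckdha had 212, 216, 179 and 179 CPM in the control and 205, 213, 208 and 198 CPM in the resmetirom libraries, a log2 fold change of 0.068 (SE 0.089, edgeR adjusted p = 0.771). Bckdhb had 46.7 to 53.6 CPM and 47.7 to 55.9 CPM, at 0.030 (SE 0.090, edgeR adjusted p = 0.919). The groups overlapped throughout for both, and with library sizes only the values were -0.24 and -0.27, close to the -0.31 of all genes.

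Levels were compared between genes per transcript length, on the deposited TPM scale. In the control libraries the highest of the 37 were Bhmt at 3506 ± 1543 TPM, Mat1a at 2852 ± 673, Hpd at 2438 ± 235 and Ass1 at 2020 ± 171 (SD, n = 4 each). The spread of Bhmt covers the other 3, so their order is not resolved. The lowest were Nags at 35.3 ± 7.45 TPM and Sdsl at 13.3 ± 1.39 TPM. Summed over the 37 genes, the share of all counts was 3.10% to 4.24% in the control and 2.95% to 4.44% in the resmetirom libraries.

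The libraries of 1 group differed among themselves in a common way over these genes. Control replicate 2 was the highest of the 4 control libraries in 29 of the 37 genes (78.4%), compared with 24.0% of all tested genes. Control replicate 3 was the lowest in 20 of the 37 (54.1%, against 23.8% of all genes). In the resmetirom group, replicate 2 was the highest in 23 of the 37 (62.2%, against 22.1%), and replicates 3 and 1 were the lowest in 17 and 16. No label states that the numbers shared by the groups pair the libraries. Each library's median log2 ratio to the control means was 0.090, 0.39, 0.083 and 0.27 in resmetirom replicates 1 to 4. Leaving out control replicate 2 raised the calls from 8 to 11 (Asl, Mat1a and Hgd were added), beside 2.19% of all genes. Leaving out control replicate 3 or 4, or resmetirom replicate 2 or 4, left 5 in each case (Cps1, Slc25a15, Tat, Cth and Cdo1), beside 1.95%, 1.47%, 2.24% and 1.68% of all genes in that order. These 5 were called in all 8 fits that left out 1 library.

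**Figure D4:**
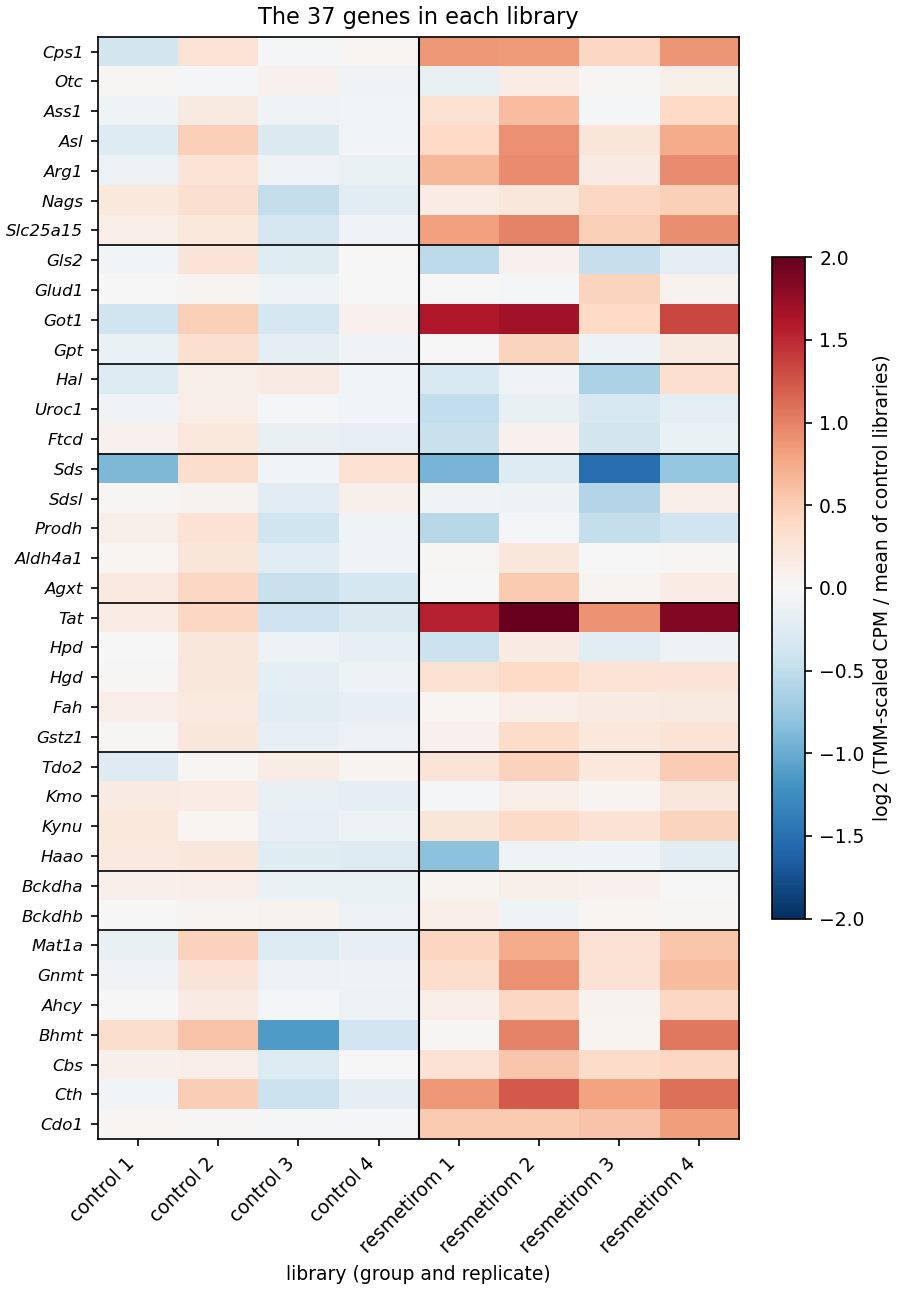
Log2 ratio of TMM-scaled CPM to the mean of the control libraries (color, -2 to 2) for each of the 37 genes (rows, with lines between pathways) in each of the 8 libraries (columns). Control replicate 2 is the reddest control column (highest in 29 of 37 rows), and the rows of Got1 and Tat are darkest in resmetirom replicates 1, 2 and 4.

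The log2 fold changes of the authors' deposited table are ratios of mean TPM. In the authors' deposited table, 4 of the 37 were higher (Tat, Got1, Cth and Slc25a15) and 15 lower at an adjusted p under 0.05 (10.8% and 40.5%), beside 1.41% and 42.1% of the 12207 genes tested here. The share of lower genes was thus near that of all tested genes. Those lower in the authors' deposited table were Uroc1, Prodh, Gls2, Sds, Ftcd, Haao, Hpd, Otc, Hal, Bckdha, Bckdhb, Sdsl, Kmo, Aldh4a1 and Fah. The median log2 fold change in the authors' deposited table was -0.28 for the 37 genes and -0.49 for the tested genes. Tat, at 1.17 there with an adjusted p of 6.18e-06, was the highest of the 37 in the authors' deposited table as well. Cps1 had 0.29 (adjusted p = 0.0947) and Cdo1 0.12 (adjusted p = 0.151) in the authors' deposited table.

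Promoter sequence was read from the RefSeq table for GRCm38.p6, which held 26 of the 37 genes. In the 250 bases before each start, both strands were searched for the nuclear receptor half-site AGGTCA, the element bound by thyroid hormone receptors and many relatives, for the cyclic AMP response half-site TGACGT, and for the C/EBP pattern TTGCNNAA. The patterns do not share a site in the promoters printed. AGGTCA was found in 10 of the 26 (38.5%), against 15.8% of all 27025 genes in the table. TGACGT was in 0 of the 26 (7.29% of all genes) and TTGCNNAA in 2 (10.8% of all genes). The 10 genes with AGGTCA were Ahcy, Bckdhb, Bhmt, Gnmt, Got1, Haao, Hgd, Nags, Tdo2 and Uroc1. Of the called genes that were searched, Gnmt had a match, and Slc25a15, Tat and Cbs had 0. A link between matches and calls was not tested. A match describes letters and does not show binding. The promoters of Tat and Got1 are printed because these genes had the 2 highest fold changes, and that of Gnmt because it was a called gene with a match. Capitals mark AGGTCA on either strand, and each run reads 5′ to 3′ along the gene, ending at the base before the RefSeq start.
Tat, chr8:109990186-109990435, + strand: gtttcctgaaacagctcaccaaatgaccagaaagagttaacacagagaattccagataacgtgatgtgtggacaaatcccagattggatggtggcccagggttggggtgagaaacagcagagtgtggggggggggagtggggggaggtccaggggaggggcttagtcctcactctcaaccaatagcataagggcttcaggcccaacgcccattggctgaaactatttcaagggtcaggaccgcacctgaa
Got1, chr19:43524606-43524855, - strand: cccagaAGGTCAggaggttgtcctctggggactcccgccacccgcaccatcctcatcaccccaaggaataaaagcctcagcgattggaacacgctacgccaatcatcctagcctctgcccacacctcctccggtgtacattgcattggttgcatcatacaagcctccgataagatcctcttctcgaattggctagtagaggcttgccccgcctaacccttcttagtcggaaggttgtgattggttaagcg
Gnmt, chr17:46729166-46729415, - strand: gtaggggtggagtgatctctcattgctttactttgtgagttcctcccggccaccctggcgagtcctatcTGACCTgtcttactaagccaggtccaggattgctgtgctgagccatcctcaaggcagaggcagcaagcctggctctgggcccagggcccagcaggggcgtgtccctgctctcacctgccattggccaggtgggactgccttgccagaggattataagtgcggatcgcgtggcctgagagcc
In these windows Got1 and Gnmt hold 1 match each, on opposite strands, and Tat holds 0.

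The wider pathway was read from a list of 106 further enzymes, carriers and transporters, 100 rows of which were tested. Of these 7 rose and 5 fell, beside 2.6% and 1.99% of all tested genes. Around the urea cycle, Slc25a22, the mitochondrial glutamate carrier gene, rose by 0.60 on the log2 scale (SE 0.12, edgeR adjusted p = 0.0128), as 1 of 12. Its levels were 109, 118, 93.8 and 89.4 CPM in the control and 139, 167, 137 and 178 CPM in the resmetirom libraries, without overlap.

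Around the sulfur branch, 1 of 19 rose and 2 fell. Pemt, which uses S-adenosylmethionine to make phosphatidylcholine, rose from 103 to 125 CPM across the control libraries to 160 to 186 CPM (log2 fold change 0.62, SE 0.089, edgeR adjusted p = 0.00180). The genes that fell encode mitochondrial enzymes of hydrogen sulfide oxidation. Sqor, the sulfide quinone oxidoreductase gene, was at 120, 129, 134 and 130 CPM in the control and at 85.5, 94.2, 81.9 and 80.8 CPM in the resmetirom libraries (log2 fold change -0.58, SE 0.085, edgeR adjusted p = 0.00189). Ethe1, the persulfide dioxygenase gene, averaged 22.3 ± 3.63 and 13.96 ± 2.89 CPM (SD, n = 4 each; log2 fold change -0.68, SE 0.16, adjusted p = 0.0364). The groups did not overlap for any of the 3. Other enzymes of sulfur oxidation on the list were not called, with Suox at -0.0013, Tst at 0.020 and Mpst at 0.23.

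Around the aromatic branches 2 of 11 rose. They were Gch1, which starts synthesis of the tetrahydrobiopterin used by phenylalanine hydroxylase, at 0.52 (SE 0.10, edgeR adjusted p = 0.0120), and Kyat3, a kynurenine aminotransferase gene, at 0.51 (SE 0.13, adjusted p = 0.0422). Around histidine, serine, glycine and lysine, 0 of 23 rose and 3 fell. Hnmt, the histamine methyltransferase gene, went from 53.7 to 62.0 CPM in the control to 26.4 to 33.4 CPM in the resmetirom libraries, which is -0.98 on the log2 scale (SE 0.10, adjusted p = 0.000211). Aldh7a1, of lysine breakdown, fell by 0.60 (adjusted p = 0.00235) and Agxt2, a mitochondrial aminotransferase gene, fell by 0.39 (adjusted p = 0.0348).

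The longer branched-chain pathway had 0 of 20 genes called by edgeR, with 4 at an unadjusted p under 0.05. Of all tested genes, 9.48% (higher) and 8.36% (lower) had such a p. Its smallest p belonged to Acat1, the mitochondrial thiolase gene, at 0.31 (SE 0.082, adjusted p = 0.0513). Of 15 amino acid transporters 3 rose and 0 fell. Slc38a2, a sodium-coupled carrier of small neutral amino acids, was at 52.9, 53.8, 57.7 and 49.7 CPM in the control and at 79.1, 120, 117 and 97.8 CPM in the resmetirom libraries (log2 fold change 0.95, SE 0.13, adjusted p = 0.00102). Slc6a12, the betaine carrier gene, rose by 0.88 (SE 0.12, adjusted p = 0.00102) and Slc16a10, the carrier of aromatic amino acids, by 0.64 (SE 0.12, adjusted p = 0.00813). With library sizes only, 2 of the 100 wider genes were higher and 27 lower, where 1.24% and 16.1% of all genes were.

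Of 15 genes for regulators of these pathways, 0 were called by edgeR and 2 had an unadjusted p under 0.05. Of all tested genes, 9.48% had such a p with a higher value and 8.36% with a lower value. Both regulators lay above 0, and whether 2 of 15 exceeds the share of all genes was not tested. Gcgr, the glucagon receptor gene, was at 99.0, 115, 104 and 106 CPM in the control and at 127, 145, 122 and 141 CPM in the resmetirom libraries. Its groups did not overlap, and the log2 fold change was 0.34 (SE 0.089, edgeR adjusted p = 0.0540). Atf4, the amino acid response factor gene, was at 0.36 (SE 0.10, adjusted p = 0.0657).

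The libraries were checked against cell type markers. Of 9 hepatocyte markers 8 were found by symbol, and their summed level was 78493 to 89355 CPM in the control and 93235 to 102500 CPM in the resmetirom libraries, with 0 of 8 called. Most of that sum was Alb (58272 ± 3636 and 73186 ± 2682 CPM, SD, n = 4 each). Alb and Apoa1 had groups apart, the other 6 markers overlapped, and Ttr (-0.088) and Cyp2e1 (-0.27) had values below 0. In bulk RNA fewer cells of a type and less RNA per cell cannot be told apart. Of 9 markers of periportal hepatocytes 6 are among the 37 genes, and the 3 that are not were mixed: Cyp2f2 at 0.071, Pck1 at 0.24 and Hsd17b13 at -0.53, the last called (edgeR adjusted p = 0.0297). Of 9 pericentral markers 1 rose (Lgr5, at 1.15) and 1 fell (Cyp1a2, at -1.94). The summed levels of markers of macrophages (732 to 1132 and 446 to 1199 CPM), stellate cells (424 to 638 and 431 to 696 CPM), endothelium (226 to 327 and 198 to 298 CPM) and cholangiocytes (28.3 to 53.1 and 40.5 to 71.7 CPM) overlapped between groups, as did those of lymphocytes, of which none exceeded 13.7 CPM, and of adipocytes (77.8 to 181 and 53.2 to 140 CPM). Among these, the stellate marker Col3a1 and the adipocyte marker Fabp4 fell, and 0 others were called. The sums hide the direction of single markers. All 7 endothelial, 8 of 9 stellate and 7 of 10 macrophage markers had log2 fold changes below 0, as had 6188 of all 12207 tested genes. Both tested adipocyte markers lay below 0. Of 5 tested cholangiocyte markers 4 lay above 0, as did 4 of 5 tested lymphocyte markers. Of 5 kidney tubule markers 4 had no counts, as had the adipocyte markers Adipoq and Lep. The part of shifts in cell makeup in the values above was not tested.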

How the data were processed

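Poly(A)-selected liver RNA of 8 libraries (4 control, 4 resmetirom, by title) was analysed. The authors deposited whole-number counts per gene, TPM values, a log2 fold change, and a p-value with an adjusted p-value, per the file headers. Per the submitters' processing notes, the build was mm10 and the tools were RSEM, HISAT2 2.1.0, edgeR, StringTie 1.3.1, Bowtie2 2.2.8, DESeq2 and fastp 0.18.0, with no role for any, so the steps behind each column, strand handling included, are not given in the sources used here. Exons of 7 of the 37 genes (Nags, Gls2, Sds, Aldh4a1, Gstz1, Bckdha and Bhmt) overlap another gene in GENCODE M21. How reads of such pairs, or of near copies such as Bhmt and Bhmt2, were assigned is not given, and some may be misassigned.

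Each library held between 16787561 and 19887539 counts. The test was edgeR's quasi-likelihood test (version 4.0.16 under R 4.3.3, filterByExpr, 12207 genes, TMM factors, robust quasi-likelihood fit, Benjamini-Hochberg adjustment over all tested genes, threshold 0.05). A positive log2 fold change means higher with resmetirom, and its SE was derived from the F statistic. Alternatives used DESeq2 1.42.0, limma 3.58.1, other scalings and filters, a replicate block, and each library left out. The fit on library sizes without Mup genes was chosen after seeing the data. Pairs of libraries in a group differed beyond counting error (chi-square per degree of freedom of 13.8 or more). The procedure was tested on simulated counts.

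The 37 genes and the lists beside them were chosen with earlier results of these data known. By the naming rule, called genes and the smallest p of each branch are given in every library (Asl, Mat1a, Hgd, Tdo2 and Sds were added after their values were seen), and of each wider list up to 4 called genes or else the smallest p. All per-sample columns were matched to a sample by name. Positions follow GENCODE M21 (GRCm38, which mm10 names), and no position or sequence is given for Cdo1.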

Additional observations from a re-analysis of the deposited data

Results flagged for a closer look

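Within 1 group of 4 libraries, a library was marked where its gap to the nearest other one over the group's range exceeded Dixon's 95% critical value for 4 samples. Chance marks about 1 in 20 groups, and 9 of 102 groups were marked. In 4 of the 9 it was control replicate 2 that stood above the other control libraries: Ass1 at 2091 CPM (the next was 1773), Arg1 at 1455 CPM, Mat1a at 6742 CPM (the next was 4389) and Gnmt at 832 CPM. In 2 it was resmetirom replicate 3, as the lowest for Cps1 at 4414 CPM and the highest for Glud1 at 1265 CPM. Resmetirom replicate 4 was the highest for Cdo1 at 2731 CPM and for Acat1 at 836 CPM, and resmetirom replicate 2 for Aldh4a1 at 270.3 CPM. Genes of 1 library are not independent of each other, so the marks do not count as separate events.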

How the results depend on the processing

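All 8 called genes stayed above 0 under the 19 alternatives except Cbs, at -0.14 on both TPM scales. The counts of all genes called higher and lower (317 and 243) were 532 and 411 with DESeq2, 151 and 1961 with library sizes only, 123 and 4648 on log2(TPM + 1), 122 and 4608 on log2(TPM + 0.1), and 182 to 313 and 149 to 238 with 1 library left out. Library sizes without Mup genes, chosen after seeing the data, gave 444 lower. Of the 37 genes, those called higher and lower (8 and 0) were 13 and 0 with DESeq2, 3 and 6 with library sizes only, 2 and 14 on both TPM scales, 5 and 1 without Mup genes in the library sizes, and 5 to 11 and 0 with 1 library left out. Of the wider genes, the 7 higher and 5 lower became 11 and 8 with DESeq2, 2 and 27 with library sizes only, 1 and 46 on both TPM scales, 4 to 9 and 3 to 5 with 1 library left out, and 8 lower without Mup genes. The non-robust fit called 7 of the 37 higher and 0 lower (Got1 added, Gnmt and Cbs lost). The median of the 37 was -0.070 with library sizes only and -0.28 on both TPM scales. The cause of these shifts was not tested. The replicate numbers were shared between groups, and no label states that they pair the libraries. Deviations of same-numbered libraries correlated at -0.325, 0.184, -0.186 and -0.0612. Correlations this weak cannot decide whether the libraries were paired, and the main fit left them unpaired. With the replicate block 240 genes were higher and 166 lower, 10 of the 37 were higher and 0 lower (Asl, Got1 and Mat1a added, Cbs lost), 5 wider genes were higher and 4 lower, and the median of the 37 was 0.24.

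Single genes that changed sign were, with library sizes only, Otc at -0.27, Glud1 -0.18, Gpt -0.16, Aldh4a1 -0.23, Agxt -0.11, Fah -0.18, Gstz1 -0.070, Kmo -0.21, Bckdha -0.24, Bckdhb -0.27 and Ahcy -0.041. On log2(TPM + 1), and to the same 2 decimals on log2(TPM + 0.1) unless given, they were Otc -0.47, Ass1 -0.18, Nags -0.15, Glud1 -0.37, Gpt -0.35, Aldh4a1 -0.42, Agxt -0.28, Hgd -0.19, Fah -0.37, Gstz1 -0.28, Tdo2 -0.19, Kmo -0.40, Kynu -0.18, Bckdha -0.43, Bckdhb -0.46 (-0.47), Ahcy -0.24, Cbs -0.14, Acat1 -0.19 and Gcgr -0.17. Without Mup genes in the library sizes they were Otc -0.074, Aldh4a1 -0.034, Kmo -0.012, Bckdha -0.042 and Bckdhb -0.081. With 1 library left out, Hal ran from -0.32 to 0.010 (without resmetirom replicate 3), and Bckdhb from -0.0094 (without control replicate 4; -0.0087 without resmetirom replicate 1) to 0.067. Counting error weighs most on the least abundant of the 37, Sdsl, with 1299 counts over the 8 libraries.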
